A study of Mus musculus with 12 samples.

Results

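The genes of the potassium channel family were examined in the dorsal lateral geniculate nucleus (dLGN), the thalamic nucleus that relays retinal input to visual cortex, of newborn mice lacking *Sox2* or *Nr2f1* in the thalamus. Members were all genes whose symbol starts with Kcn, with antisense and overlapping transcripts left out, which gave 94 of the 24480 genes in each table. The 4 symbols left out were *Kcnd3os*, *Kcnmb4os1*, *Kcnmb4os2* and *Kcnq1ot1*. The rule used gene symbols alone, and the family itself was picked with earlier results of these data known.

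Potassium channels let potassium leave or enter the cell and thereby set the resting potential, shape the action potential and limit how often a neuron fires. Voltage-gated (Kv) channels open on depolarization, inward rectifiers (Kir) conduct near rest and include channels gated by G proteins or ATP, two-pore (K2P) channels carry leak current, and calcium-activated channels open after calcium entry. In thalamic relay neurons these currents act together with low-threshold calcium channels and decide between burst and tonic firing, while in astrocytes Kir channels take up potassium released by neurons.

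RNA was sequenced from 12 libraries at postnatal day 0, each made from the dLGNs of 3 pooled animals, in 4 groups of 3 libraries. Mutants of the first line were Sox2flox/flox;Ror-alphaCre and those of the second Nr2f1 flox/flox;Ror-alphaCre, with Cre expressed from the *Rora* locus. By the study, deletion takes place in sensory thalamic cells after their last division. Which other cells of the dissected tissue kept the gene was not tested. Controls were littermates of the same line with 2 intact copies of the gene (flox/flox or flox/+) and, by the study's methods, no Cre. The labels of the *Nr2f1* controls name the Cre allele but also state that Cre is absent. Cre in the *Rora* locus thus went with the deletion in both lines, so effects of Cre itself and of the deletion cannot be told apart. Mutants were set against the controls of their line, and a gene was called at an FDR (Benjamini-Hochberg adjusted p over all genes tested) below 0.01 in edgeR's quasi-likelihood test. Levels are CPM (the count relative to the TMM-scaled library size within a line), and values in a list are those of the 3 libraries of a group.

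Library totals lay between 39293465 and 50095344 counts, of which the potassium channel genes took 0.189% to 0.231%. *Sox2* was at 361 to 382 CPM in the controls and 116 to 152 CPM in the mutants of its line, and *Nr2f1* at 311 to 380 CPM and 101 to 151 CPM in its own (exact permutation test, two-sided p = 0.1 for each, the smallest that 3 against 3 libraries allow). In *Nr2f1* mutants *Sox2* was also lower, at 212 to 279 CPM against 343 to 374 CPM in their controls. It was called there (log2 fold change -0.55 ± 0.089, FDR 0.00635), but not without CTRL_B, CTRL_D, CTRL_E, MUT_A or MUT_C (FDR 0.0104 to 0.0409). With male-specific or fibroblast genes as a covariate the call was lost too (FDR 0.0607 and 0.146). In *Sox2* mutants *Nr2f1* was at 221 to 313 CPM against 308 to 345 CPM in their controls, with overlap and no call (FDR 0.0559). In the *Sox2* line the summed level of 7 thalamic glutamatergic markers was 1593 to 2037 CPM in controls and 1395 to 1430 CPM in mutants (4 lower and 1 higher of 7), that of 7 astrocyte and radial glia markers 1767 to 2116 and 2684 to 3080 CPM (5 higher of 7), and that of 7 microglial markers 87.8 to 100.1 and 189 to 214 CPM (6 higher of 7). The summed level of 7 general neuron markers overlapped in that line (5358 to 6247 and 4926 to 5425 CPM, 2 lower of 7). In the *Nr2f1* line the summed level of the thalamic markers overlapped between groups (1924 to 2151 and 1796 to 2082 CPM, 1 higher and 1 lower of 7). Single genes in it moved in opposite directions. *Lhx2* was called higher (FDR 0.00255) and *Lef1* lower (FDR 0.00853). Without a call, *Gbx2* and *Tcf7l2* were above all controls and *Lhx9* below them, while *Rora* and *Slc17a6* overlapped. The summed general neuron markers were apart, at 6019 to 6147 CPM in controls and 5276 to 5860 CPM in mutants (0 called of 7). The astrocyte markers there were at 1502 to 1579 CPM in controls and 1693 to 1879 CPM in mutants (1 higher of 7), and the microglial markers at 67.3 to 76.9 and 83.1 to 111.1 CPM (0 called of 7). The summed level of 4 GABAergic neuron markers was 382.4 to 430.5 CPM in controls and 455.1 to 480.8 CPM in mutants of the *Sox2* line (0 called of 4). In the *Nr2f1* line it was 380.6 to 416 and 386.8 to 505.8 CPM, with overlap (0 called of 4). The part of these shifts in the results on channel genes was not tested, and in bulk tissue fewer cells of a type and less RNA per cell cannot be told apart. Fibroblast markers varied within groups. Their sum was 895 to 1796 CPM in controls and 1375 to 3118 CPM in mutants of the *Sox2* line, highest in CTRL_3 and MUT_3, and 687 to 1044 and 994 to 2300 CPM in the *Nr2f1* line, highest in MUT_A and MUT_C, with overlap in both.

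Among the members with the highest level per transcript length in control dLGN were *Kcnk10* (TREK-2, a leak channel, 28.0 to 43.3 CPM per kb over the 6 controls), *Kcnh2* (ERG1, 29.6 to 37.0) and *Kcnd3* (Kv4.3, 30.4 to 37.3), whose ranges overlap so that their order is not resolved. They were followed by *Kcnc1* (Kv3.1, 22.5 to 27.8 CPM per kb), *Kcnip1* (KChIP1, a Kv4 partner, 22.7 to 27.2) and *Kcnn1* (SK1, 12.9 to 24.8), again with overlapping ranges between neighbours. A total of 41 members had a mean above 10 CPM in the controls of both lines. At the other end, 11 members were too low to be tested in either line, among them *Kcnk16*, with 0 counts in all libraries, and *Kcnk18* (TRESK), with at most 2 counts in a library.

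**Figure D1:**
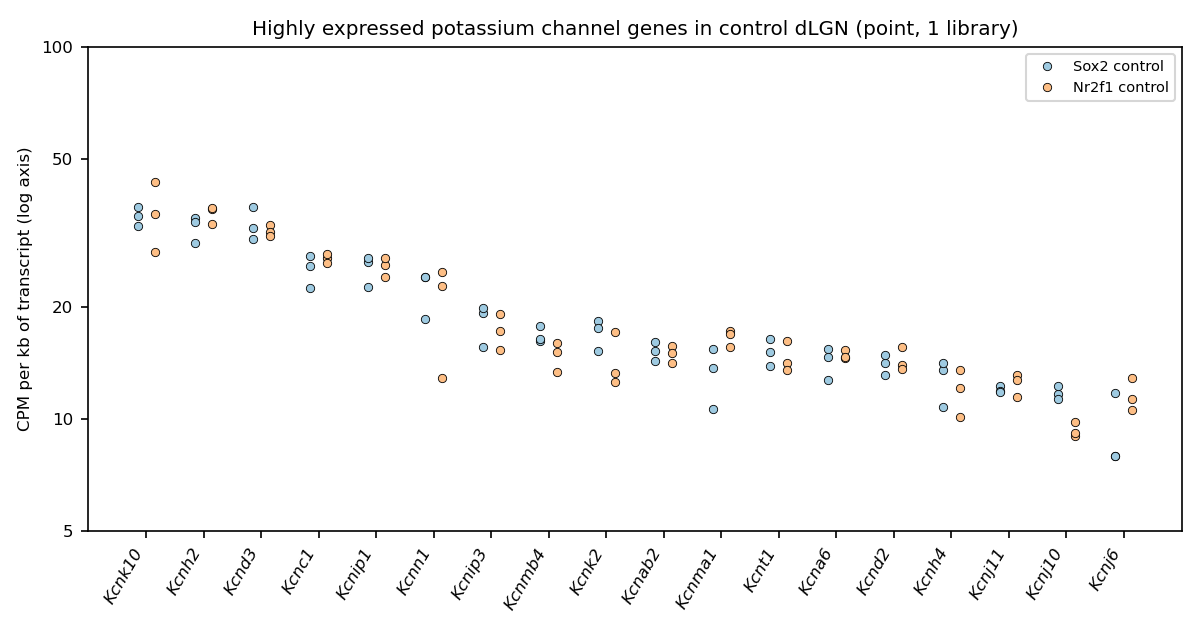
Level of 18 of the highest potassium channel genes in the control libraries, in CPM per kb of transcript on a log axis, with 1 point for each of 3 libraries of the *Sox2* line (blue) and 3 of the *Nr2f1* line (orange). The points of *Kcnk10*, *Kcnh2* and *Kcnd3* overlap.

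In *Sox2* mutants 19 of the 83 members tested passed the threshold (22.9%), 12 lower and 7 higher, where 8.08% of all 15602 genes tested did (4.19% lower and 3.9% higher). All 6 voltage-gated pore subunit genes that passed, of 37 tested, were lower, and of 13 auxiliary subunit genes tested 1 was lower and 4 were higher. Among 14 inward rectifier genes 2 were lower and 3 higher, and among 10 two-pore genes 2 were lower. The median log2 fold change of the members was 0.08, against 0.00 for all genes, and the median size of the change regardless of sign was 0.40 against 0.19. The libraries of mutants and controls did not overlap for 43 of the 83 members, and for 37.9% of all genes tested. The sum over all members was 2060 to 2334 CPM in controls and 1876 to 1978 CPM in mutants, so that the groups did not overlap. Without the 5 members of highest CPM the sum was 1384 to 1523 CPM in controls and 1298 to 1399 CPM in mutants, and the groups overlapped. The count depended on the libraries kept: it was 11 without CTRL_1, 10 without CTRL_2 and 11 without MUT_4. When each library was left out in turn it lay between 10 and 24, and leaving out 1 also lowers the power of the test.

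In *Nr2f1* mutants 7 of the 81 members tested passed (8.64%), 5 lower and 2 higher, where 2.54% of all 15600 genes tested did (1.32% lower and 1.22% higher). Of 36 voltage-gated genes tested 4 were lower and 2 higher, and 1 of 13 inward rectifier genes was lower. No two-pore, calcium-activated or auxiliary gene passed. The median log2 fold change of the members was -0.01, against 0.01 for all genes, and the median size was 0.27 against 0.12. Groups did not overlap for 35 of the 81 members and for 28.6% of all genes tested. The sum over all members was 2159 to 2315 CPM in controls and 2035 to 2178 CPM in mutants, with overlap. The count was 3 without CTRL_B, 3 without CTRL_D, 2 without MUT_A and 3 without MUT_C, and 2 to 10 over all libraries left out in turn. It was 2 and 1 with the mean level of male-specific or of fibroblast genes as a covariate, settings chosen after seeing the data. A covariate also lowers the power of the test. The fibroblast sum went partly with genotype here, at 687 to 1044 CPM in controls and 994 to 2300 CPM in mutants. The part of fibroblast content in the lost calls was not tested.

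**Figure D2:**
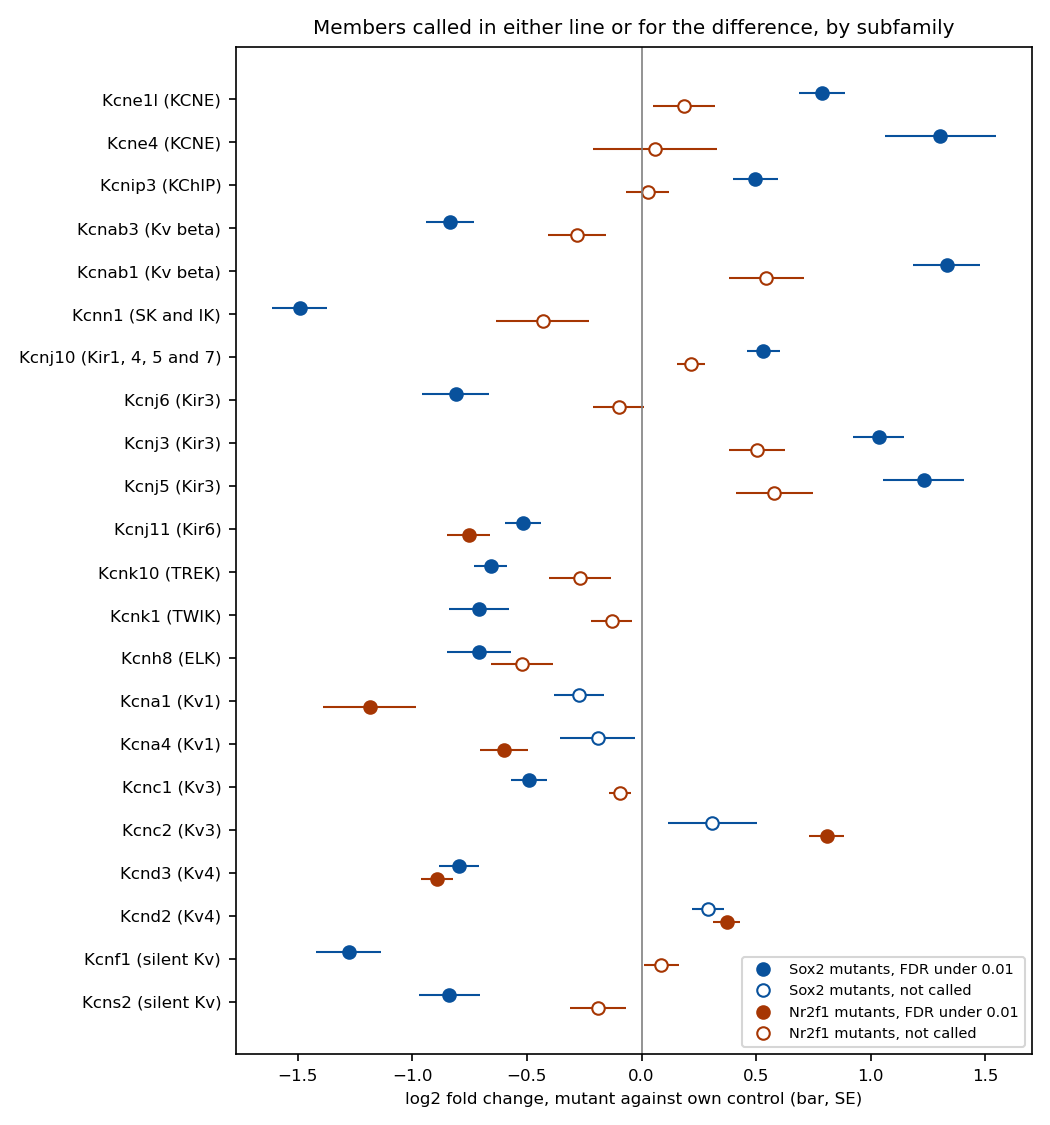
Log2 fold change of mutants against the controls of their own line (bars, SE from 3 against 3 libraries) for 22 of the 24 members called in either line or for the difference, grouped by subfamily. Filled points have an FDR below 0.01. *Kcnd3* and *Kcnj11* are filled on the negative side in both lines, and *Kcnf1* is far from 0 in *Sox2* mutants and near 0 in *Nr2f1* mutants.

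Among the silent Kv subunits, which carry no current alone and modify Kv2 channels when they assemble with them, *Kcnf1* (Kv5.1, chromosome 12 from 17172100 to 17176888, GRCm38) fell in *Sox2* mutants. Its level was 33.9, 36.3 and 26.3 CPM in controls and 11.3, 13.5 and 14.9 CPM in mutants. Every mutant library lay below every control, at 41.2% of the control mean (log2 fold change -1.28 ± 0.14, FDR 3.78e-04). Across *Nr2f1*-line libraries it was 36.3, 35.1 and 30.8 CPM in controls and 37.4, 36.9 and 34.2 CPM in mutants, groups that overlap (log2 fold change 0.09 ± 0.078, FDR 0.545). *Kcnf1* was the one member of 83 called for the difference between the lines (log2 difference -1.36 ± 0.17, FDR 4.59e-04), where 1.44% of all 15989 genes were called (1.11% with a lower and 0.331% with a higher change in *Sox2* than in *Nr2f1* mutants). The call was made in all 19 alternative settings tried, which changed the filter, the scaling or the test or left out 1 of the 12 libraries.

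The 250 bases before the start of *Kcnf1* (GRCm38.p6, chr12:17176889-17177138, minus strand, RefSeq) are shown because this gene separates the lines. The letters searched in such windows on both strands were AGGTCA, a half-site bound by nuclear receptors, the class to which NR2F1 belongs, and ACAAAG and ACAATG, core letters bound by SOX proteins; matches are in capitals, and none of the motifs overlaps another.
Kcnf1: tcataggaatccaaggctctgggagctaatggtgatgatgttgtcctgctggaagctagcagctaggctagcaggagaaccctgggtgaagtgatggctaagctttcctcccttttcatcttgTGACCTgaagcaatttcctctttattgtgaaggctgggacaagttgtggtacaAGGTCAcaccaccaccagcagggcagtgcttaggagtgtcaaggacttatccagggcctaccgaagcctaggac
It holds AGGTCA or its complement in 2 places, starting 127 and 74 bases before the start, and neither SOX core. Of all 32851 RefSeq windows of this length, 14% hold AGGTCA, 16.5% ACAAAG and 10.7% ACAATG. Of the 94 windows of the 69 members found in the table, 6.38%, 10.6% and 7.45% do. A match describes the letters and is not a site of binding.

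*Kcns2* (Kv9.2), another silent subunit, was at 25.4, 20.7 and 18.9 CPM in controls and 13.6, 10.8 and 11.9 CPM in *Sox2* mutants. The groups did not overlap, and the fall was called (log2 fold change -0.84 ± 0.13, FDR 0.00264). *Kcns2* was no longer called without CTRL_1, CTRL_2 or MUT_4 (FDR 0.0105 to 0.0168). In *Nr2f1* mutants it was 23.97, 20.95 and 18.8 CPM against 24.9, 20.4 and 27.3 CPM and not called (log2 fold change -0.19 ± 0.12, FDR 0.387). The remaining 7 silent subunit genes tested in the *Sox2* line did not pass.

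SK channels have a small conductance and are opened by calcium through bound calmodulin. As a class they are known for the afterhyperpolarization that follows spikes. *Kcnn1*, which encodes SK1, was the member with the smallest p in *Sox2* mutants. It was at 97.6, 75.1 and 97.4 CPM in controls and 29.1, 30.6 and 36.3 CPM in mutants, 35.5% of the control mean, with no overlap (log2 fold change -1.49 ± 0.12, FDR 7.85e-05). It was called in all 17 alternative settings of this line. In the *Nr2f1* line its levels were 100.2, 92.1 and 52.3 CPM in controls and 53.2, 68 and 60.1 CPM in mutants. One control, CTRL_E, lay below all mutants there, and the change was not called (log2 fold change -0.43 ± 0.20, FDR 0.224), nor was the difference between the lines (log2 difference -1.05 ± 0.27, FDR 0.0526). The other SK genes, *Kcnn2* and *Kcnn3*, overlapped between groups in both lines. *Kcnn1* thus made up 57.7, 52.7 and 62.5% of the length-scaled SK and IK transcripts in *Sox2*-line controls and 36.5, 36.6 and 36.1% in mutants.

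Kv4 channels carry the fast inactivating A-type current in dendrites and somata. *Kcnd3* (Kv4.3, chromosome 3 from 105451890 to 105674002) fell in both lines. Across *Sox2*-line libraries it was at 173, 151 and 141 CPM in controls and 82.9, 95.8 and 89.1 CPM in mutants, 57.6% of the control mean (log2 fold change -0.80 ± 0.088, FDR 3.75e-04). Across *Nr2f1*-line libraries it was at 154, 147 and 144 CPM in controls and 73.8, 89.2 and 77.1 CPM in mutants, 53.9% of the control mean (log2 fold change -0.89 ± 0.071, FDR 1.85e-04). All mutant libraries were below all controls in both lines. It was the member with the smallest p in *Nr2f1* mutants, and it was called in all 17 settings of the first line and all 16 of the second.

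*Kcnd2* (Kv4.2), the other main Kv4 gene, was higher in mutants. It was at 72.1, 70.3 and 80.5 CPM in controls and 96.6, 94.5 and 96.98 CPM in *Nr2f1* mutants, with no overlap, and rose (log2 fold change 0.37 ± 0.059, FDR 0.00621). *Kcnd2* was no longer called without CTRL_B, CTRL_D, MUT_A or MUT_C (FDR 0.0236 to 0.0349) or with the male-specific covariate or the fibroblast covariate (FDR 0.0504 to 0.143). In the *Sox2* line it was 73.1, 76.4 and 67.7 CPM in controls and 85.7, 86.8 and 92.97 CPM in mutants, again without overlap but short of the threshold (log2 fold change 0.29 ± 0.070, FDR 0.0192). Of the length-scaled Kv4 transcripts, *Kcnd3* made up 69.6, 66 and 67.2% in *Sox2*-line controls and 48.6, 52.5 and 48.6% in mutants, and 67.8, 67.3 and 63.9% and 44.2, 48.8 and 44.97% in the *Nr2f1* line. The share of *Kcnd2* was larger in the mutants of both lines, at 45.2, 42.8 and 45.7% and 52.1, 46.5 and 50.9% in the mutants. *Kcnd1* overlapped between groups in both lines and was not called.

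The window before *Kcnd3* (GRCm38.p6, chr3:105451640-105451889, plus strand, RefSeq) is shown because the gene is one of the members lower in both lines and had the smallest p in *Nr2f1* mutants.
Kcnd3: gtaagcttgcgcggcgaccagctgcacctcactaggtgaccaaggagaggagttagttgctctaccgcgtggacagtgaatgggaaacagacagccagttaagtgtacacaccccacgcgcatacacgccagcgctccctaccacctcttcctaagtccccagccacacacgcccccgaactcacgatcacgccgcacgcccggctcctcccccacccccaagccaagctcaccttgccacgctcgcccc
None of the 3 motifs is in this window, which says only that these letters are absent from these 250 bases.

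Kv4 pores work with KChIP proteins, which bind calcium, and with the dipeptidyl peptidase-like proteins DPP6 and DPP10. *Dpp6* was at 416, 399.9 and 349 CPM in controls and 242, 259.6 and 229.98 CPM in *Sox2* mutants, with no overlap (log2 fold change -0.67 ± 0.084, FDR 7.24e-04). In *Nr2f1* mutants it was 393, 398 and 339 CPM against 445, 425 and 489 CPM and not called (log2 fold change -0.27 ± 0.075, FDR 0.0623), and *Dpp10* passed in neither line. *Kcnip3* (KChIP3) rose in *Sox2* mutants, from 31.5, 38.7 and 39.9 CPM to 51.04, 48.7 and 55.4 CPM without overlap (log2 fold change 0.50 ± 0.099, FDR 0.00808). *Kcnip3* was no longer called without CTRL_1, CTRL_2, MUT_1, MUT_3 or MUT_4 (FDR 0.0132 to 0.0437) or with the male-specific covariate or the fibroblast covariate (FDR 0.0163 to 0.0226). The most abundant KChIP gene, *Kcnip1*, was 48.8, 49.99 and 41.7 CPM in controls and 47.1, 40.4 and 42.6 CPM in *Sox2* mutants (log2 fold change -0.11 ± 0.091, FDR 0.420) and overlapped in both lines.

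**Figure D3:**
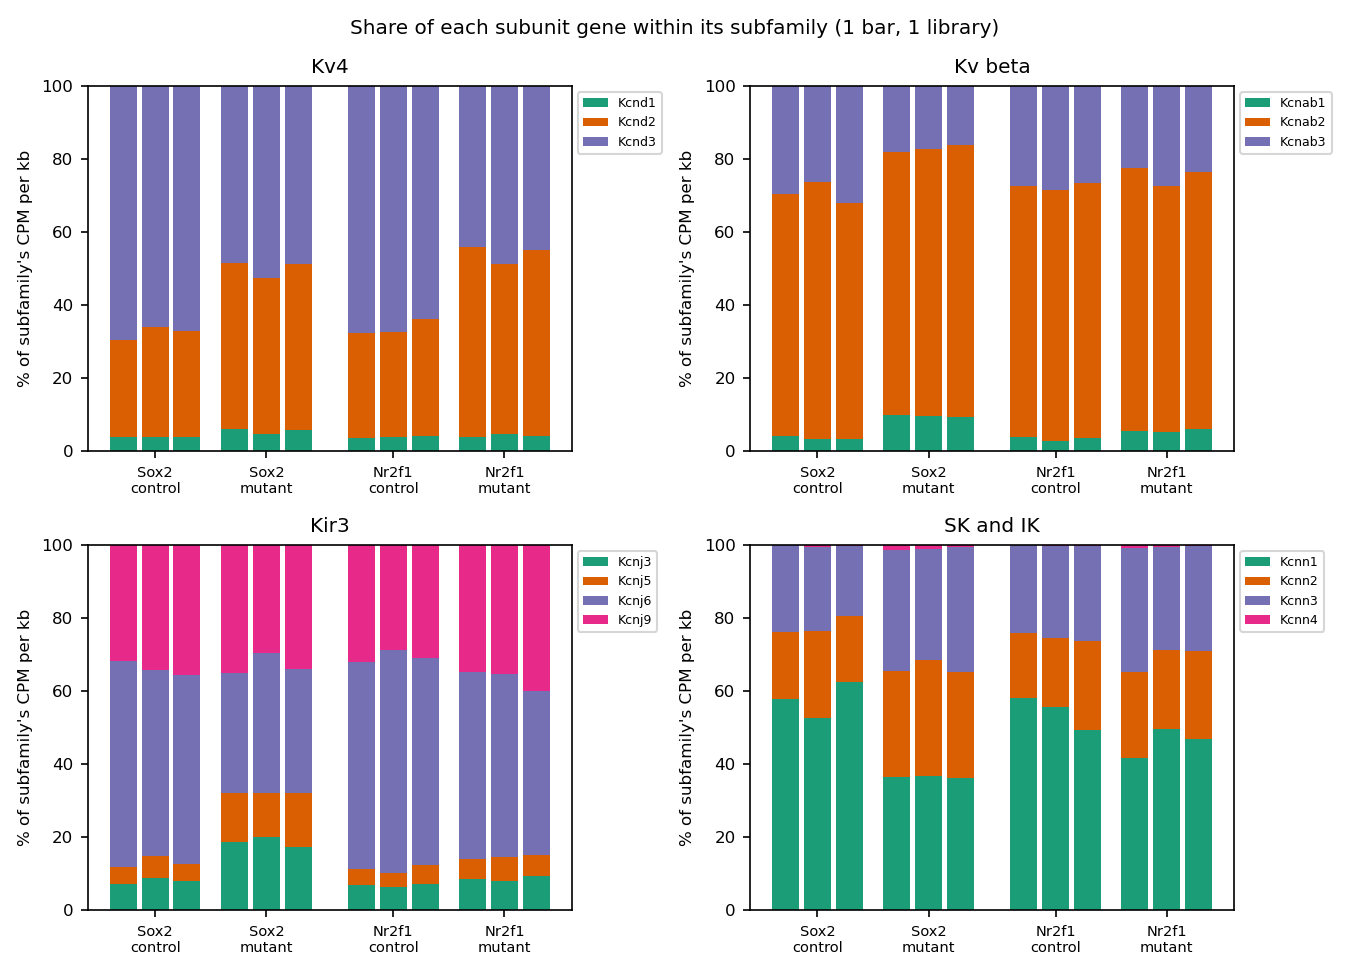
Share of each subunit gene in the length-scaled transcripts of its subfamily, in percent, 1 bar per library, for Kv4, Kv beta, Kir3 and the SK and IK genes. The *Kcnd3* share is smaller in all 6 mutant libraries than in all 6 controls, and the *Kcnj6* share is smallest in the 3 *Sox2* mutants.

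Kv3 channels close quickly and permit fast spiking. *Kcnc1* (Kv3.1) was at 149.96, 140.3 and 123 CPM in controls and 101, 96.003 and 97.2 CPM in *Sox2* mutants (log2 fold change -0.49 ± 0.079, FDR 0.00283) and fell without overlap between groups. *Kcnc1* was no longer called without CTRL_1, CTRL_2, MUT_3 or MUT_4 (FDR 0.0109 to 0.0191). In the *Nr2f1* line it was 148, 152 and 143 CPM in controls and 140.3, 142 and 133 CPM in mutants and was not called, nor was the difference between the lines (FDR 0.0272).

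*Kcnc2* (Kv3.2) was called in *Nr2f1* mutants, where it rose from 17.9, 17.8 and 17.4 CPM in controls to 33.7, 28.99 and 30.3 CPM in mutants, 175% of the control mean (log2 fold change 0.81 ± 0.076, FDR 4.08e-04). All mutants were above all controls, and the call was made in 15 of 16 settings, the exception being the fibroblast covariate (FDR 0.0102). Across *Sox2*-line libraries it was 14.02, 17.9 and 12.5 CPM in controls and 20.7, 12.999 and 21.3 CPM in mutants, with MUT_3 within the control range (log2 fold change 0.31 ± 0.19, FDR 0.291), and the difference between the lines was not called (FDR 0.309). *Kcnc4* (Kv3.4) did not overlap in either line, at 25.3, 24.3 and 21.1 CPM in controls and 32.5, 26.96 and 33.5 CPM in *Sox2* mutants and 23.5, 24.03 and 19.5 CPM and 29.9, 27.7 and 33.6 CPM in the *Nr2f1* line, but its FDR was 0.0308 and 0.0300; it is named here after its values were seen.

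Kv1 channels sit in axons and near the initial segment, where they oppose spike initiation. *Kcna1* (Kv1.1) was at 18.2, 20.9 and 11.7 CPM in controls and 6.78, 8.82 and 6.67 CPM in *Nr2f1* mutants, 43.9% of the control mean (log2 fold change -1.19 ± 0.20, FDR 0.00851). *Kcna4* (Kv1.4), which inactivates quickly, was at 13.3, 11.1 and 12.5 CPM and 8.51, 7.87 and 7.96 CPM (log2 fold change -0.60 ± 0.10, FDR 0.00855). Both fell without overlap, but the calls are not firm. *Kcna1* was no longer called without CTRL_B, CTRL_D, MUT_A or MUT_C (FDR 0.0320 to 0.0515) or with the male-specific covariate or the fibroblast covariate (FDR 0.0734 to 0.190), and *Kcna4* without CTRL_B, CTRL_D, CTRL_E, MUT_A, MUT_B or MUT_C (FDR 0.0129 to 0.0388) or with one fit over 12 libraries, the male-specific covariate or the fibroblast covariate (FDR 0.0213 to 0.176). In the *Sox2* line *Kcna1* was 19.4, 15.98 and 16.7 CPM in controls and 13.8, 15.7 and 13.6 CPM in mutants (log2 fold change -0.27 ± 0.11, FDR 0.110) and *Kcna4* was 11.1, 12.2 and 8.07 CPM and 8.79, 8.33 and 10.4 CPM (log2 fold change -0.19 ± 0.16, FDR 0.443), neither called. *Kcna6* (Kv1.6), the Kv1 gene with the highest CPM, was 89.95, 85.9 and 74.3 CPM in controls and 106, 92.1 and 102 CPM in *Sox2* mutants (log2 fold change 0.26 ± 0.087, FDR 0.0604), and it lies 62.5 kb from *Kcna1* on chromosome 6.

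Kv beta subunits attach to the inside of Kv1 channels and alter their inactivation and trafficking. In *Sox2* mutants 2 of the 3 genes moved in opposite directions. *Kcnab1* rose from 3.08, 2.56 and 2.47 CPM to 6.94, 6.93 and 6.55 CPM (log2 fold change 1.33 ± 0.15, FDR 3.75e-04), and *Kcnab3* fell from 17.2, 15.4 and 18.1 CPM to 9.94, 9.59 and 8.94 CPM (log2 fold change -0.84 ± 0.10, FDR 7.39e-04). Neither overlapped between groups, and both calls held in all 17 settings. *Kcnab2*, the most abundant of them, was 54.04, 57.4 and 50.9 CPM in controls and 55.8, 57.03 and 58.2 CPM in mutants, with overlap (log2 fold change 0.08 ± 0.070, FDR 0.474). In *Nr2f1* mutants *Kcnab1* was 3.36, 3.55 and 3.72 CPM against 2.66, 2.12 and 2.52 CPM without overlap but not called (log2 fold change 0.54 ± 0.16, FDR 0.0740), and *Kcnab3* overlapped. The length-scaled sum of the 3 genes was 22.9, 23 and 22.2 CPM per kb in *Sox2*-line controls and 21.8, 21.96 and 21.9 CPM per kb in mutants.

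Of the proteins that hold Kv1 channels in place, *Cntnap2* (Caspr2, which gathers them beside nodes of Ranvier) was 199.6, 178 and 126 CPM in controls and 102, 107 and 99.2 CPM in *Sox2* mutants (log2 fold change -0.71 ± 0.14, FDR 0.00769), and *Dlg1* (SAP97, a scaffold) 26.8, 23.9 and 30.1 CPM and 36.5, 37.9 and 41.2 CPM (log2 fold change 0.52 ± 0.098, FDR 0.00618). *Cntnap2* fell and *Dlg1* rose, each without overlap. *Cntnap2* was no longer called without CTRL_1, CTRL_2, MUT_1, MUT_3 or MUT_4 (FDR 0.0201 to 0.0404) or with the male-specific covariate or the fibroblast covariate (FDR 0.0162 to 0.0309), and *Dlg1* without CTRL_1, CTRL_2, MUT_1, MUT_3 or MUT_4 (FDR 0.0119 to 0.0355) or with the fibroblast covariate or a block for the replicate number (FDR 0.0151 to 0.0168). In *Nr2f1* mutants both were short of the threshold (FDR 0.0282 and 0.0352).

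Kv7 channels carry the M-current, which restrains repetitive firing. *Kcnq3* stood just outside the threshold in both lines. It was 40.97, 35.7 and 30.96 CPM in controls and 24.3, 25.8 and 26.7 CPM in *Sox2* mutants (log2 fold change -0.49 ± 0.11, FDR 0.0117), and 45.4, 40.4 and 38.03 CPM and 28.7, 32.9 and 28.005 CPM in the *Nr2f1* line (log2 fold change -0.47 ± 0.088, FDR 0.0130); it was named after its values were seen. The 5 Kv7 genes had a median log2 fold change of -0.34 in *Sox2* and -0.37 in *Nr2f1* mutants.

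*Ank3* encodes ankyrin-G, the scaffold that anchors Kv7 and sodium channels at the axon initial segment. It was at 399.7, 384 and 356 CPM in controls and 266, 267 and 239 CPM in *Sox2* mutants and fell without overlap (log2 fold change -0.56 ± 0.076, FDR 0.00111), in all 17 settings. Across *Nr2f1*-line libraries it was 454, 424 and 427 CPM in controls and 403, 408 and 368 CPM in mutants, not called (log2 fold change -0.15 ± 0.056, FDR 0.148), and the difference between the lines was not called either (FDR 0.0237).

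Of the ether-a-go-go families, which include the slowly deactivating ERG channels, 1 gene was called. *Kcnh8* (an ELK channel) fell in *Sox2* mutants from 9.32, 10.5 and 7.80 CPM to 6.04, 5.29 and 5.58 CPM without overlap (log2 fold change -0.71 ± 0.14, FDR 0.00774), and it was no longer called without CTRL_1, CTRL_2, MUT_1, MUT_3 or MUT_4 (FDR 0.0148 to 0.0421) or with the fibroblast covariate or a block for the replicate number (FDR 0.0164 to 0.0322). In *Nr2f1* mutants it was 6.02, 7.30 and 7.31 CPM against 11.4, 8.55 and 9.74 CPM, again without overlap (log2 fold change -0.52 ± 0.14, FDR 0.0481). *Kcnh1* (EAG1) was low but higher in every mutant library of both lines. It was 1.42, 1.07 and 1.04 CPM in controls and 3.68, 2.11 and 2.61 CPM in *Sox2* mutants (log2 fold change 1.25 ± 0.26, FDR 0.0107), and 1.17, 0.835 and 0.826 CPM and 1.68, 1.91 and 2.17 CPM in the *Nr2f1* line (log2 fold change 1.03 ± 0.24, FDR 0.0318), both short of the threshold. *Kcnh2* (ERG1) was 129, 126 and 109.9 CPM in controls and 88.5, 106 and 91.4 CPM in *Sox2* mutants (log2 fold change -0.35 ± 0.089, FDR 0.0237) and *Kcnh4* (ELK) 50.9, 40.3 and 52.95 CPM and 49.2, 30.2 and 46.8 CPM (log2 fold change -0.19 ± 0.17, FDR 0.458), not called. *Kcnh3* (ELK, a forebrain gene, named after its values were seen) was 2.13, 1.28 and 0.568 CPM in controls and 4.97, 1.92 and 4.89 CPM in *Sox2* mutants; the summed pallial markers were 16.5 to 38.2 CPM in controls and 33.7 to 104.9 CPM in mutants of that line (1 higher of 5), and their part in it was not tested.

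Kir3 (GIRK) channels open when G protein beta and gamma subunits bind them, and slow the neuron after release of transmitters such as GABA or acetylcholine. In *Sox2* mutants 3 of the 4 genes passed, in both directions. *Kcnj3* (Kir3.1) rose from 6.83, 6.44 and 5.70 CPM to 13.1, 12.95 and 12.9 CPM, 205% of the control mean (log2 fold change 1.03 ± 0.11, FDR 3.33e-04). *Kcnj5* (Kir3.4) rose from 4.64, 4.24 and 3.21 CPM to 9.42, 7.92 and 11.1 CPM, 235% of the control mean (log2 fold change 1.23 ± 0.18, FDR 0.00157). *Kcnj6* (Kir3.2) fell from 36.3, 24.7 and 24.6 CPM to 15.4, 16.6 and 16.8 CPM, 56.99% of the control mean (log2 fold change -0.81 ± 0.15, FDR 0.00536). None of the 3 overlapped between groups. *Kcnj3* and *Kcnj5* were called in all 17 settings, while *Kcnj6* was no longer called without MUT_1, MUT_3 or MUT_4 (FDR 0.0156 to 0.0243) or with the male-specific covariate or the fibroblast covariate (FDR 0.0126 to 0.0133).

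*Kcnj9* (Kir3.3) was 25.6, 20.7 and 20.9 CPM in controls and 20.4, 16.02 and 20.9 CPM in *Sox2* mutants, with overlap. The subunit shares of the other 3 genes did not overlap between groups. *Kcnj6* made up 56.3, 51.01 and 52.01% of the length-scaled Kir3 transcripts in controls and 32.9, 38.3 and 34% in *Sox2* mutants, *Kcnj3* 7.07, 8.88 and 8.03% and 18.7, 19.9 and 17.3%, and *Kcnj5* 4.76, 5.79 and 4.48% and 13.3, 12.1 and 14.8%. The summed Kir3 level was 20.8, 15.6 and 15.3 CPM per kb in controls and 15.1, 13.99 and 15.97 CPM per kb in mutants, with overlap. In *Nr2f1* mutants no Kir3 gene was called: *Kcnj3* was 8.94, 8.73 and 8.82 CPM against 7.14, 5.38 and 6.20 CPM (log2 fold change 0.50 ± 0.12, FDR 0.0388) and *Kcnj5* 5.999, 6.96 and 5.36 CPM against 4.54, 3.26 and 4.48 CPM (log2 fold change 0.58 ± 0.17, FDR 0.0686), both higher in every mutant library, and *Kcnj6* overlapped. *Kcnj9* was also higher in every *Nr2f1* mutant library, at 30.9, 31.8 and 30.97 CPM against 27.8, 20.4 and 22.2 CPM (log2 fold change 0.41 ± 0.11, FDR 0.0466), while its log2 fold change in *Sox2* mutants was -0.23 ± 0.13 (FDR 0.227), and the difference between the lines was not called (FDR 0.0703).

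*Kcnj5* had the largest rise of the called Kir3 genes, and its window (GRCm38.p6, chr9:32344345-32344594, minus strand, RefSeq) is shown because it holds both SOX cores, chosen after this was seen.
Kcnj5: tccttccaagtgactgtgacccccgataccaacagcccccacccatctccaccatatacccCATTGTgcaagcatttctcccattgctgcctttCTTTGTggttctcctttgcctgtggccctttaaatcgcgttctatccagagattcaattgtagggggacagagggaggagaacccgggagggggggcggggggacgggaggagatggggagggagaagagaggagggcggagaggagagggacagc
ACAATG starts 189 and ACAAAG 156 bases before the start, both as their complements. Among the 11 windows of the 7 members higher in *Sox2* mutants 27.3% held ACAAAG (3 windows), 18.2% ACAATG (2 windows) and 0% AGGTCA. Among the 11 windows found for 8 of the 12 lower members the values were 0%, 9.09% and 18.2%. Some members have more than 1 window, so these shares are of windows and not of genes. The windows of *Kcnj3* and *Kcnn1* hold none of the 3 motifs.

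RGS proteins with the beta subunit Gbeta5 speed the closing of Kir3 channels. *Rgs6* fell in both lines. It was 47.1, 47.5 and 41.7 CPM in controls and 35.6, 30.002 and 32.4 CPM in *Sox2* mutants (log2 fold change -0.48 ± 0.088, FDR 0.00580), and 47.9, 51.5 and 46.7 CPM and 37.1, 34.9 and 34.2 CPM in the *Nr2f1* line (log2 fold change -0.46 ± 0.065, FDR 0.00327). The groups did not overlap. *Rgs6* was no longer called in *Sox2* mutants without CTRL_1, CTRL_2, MUT_3 or MUT_4 (FDR 0.0173 to 0.0322) or with the fibroblast covariate (FDR 0.0153) and in *Nr2f1* mutants without CTRL_B, CTRL_D, MUT_A or MUT_C (FDR 0.0134 to 0.0149) or with the male-specific covariate or the fibroblast covariate (FDR 0.0193 to 0.0522). *Rgs7*, *Rgs9*, *Rgs11* and *Gnb5* passed in neither line. *Rgs7bp*, listed with them, was below all controls in both lines but short of the threshold. Its log2 fold change was -0.64 ± 0.14 in *Sox2* mutants (FDR 0.0112) and -0.51 ± 0.13 in *Nr2f1* mutants (FDR 0.0439), and it was named after its values were seen.

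ATP-sensitive channels join the pore Kir6.2, encoded by *Kcnj11*, to the sulfonylurea receptor SUR1, encoded by *Abcc8*, and couple excitability to metabolism. The genes are neighbours on chromosome 7, 3571 bases apart (*Kcnj11* from 46097123 to 46100952, *Abcc8* from 46104523 to 46180039), and both fell in both lines. *Kcnj11* was at 24.9, 24.1 and 23.97 CPM in controls and 17.2, 17.1 and 16.7 CPM in *Sox2* mutants (log2 fold change -0.52 ± 0.079, FDR 0.00218). In the *Nr2f1* line it was at 26.6, 23.2 and 25.8 CPM in controls and 15.1, 16.2 and 13.5 CPM in mutants, 59.2% of the control mean (log2 fold change -0.75 ± 0.092, FDR 0.00165). Mutants and controls were apart in both lines. *Kcnj11* was no longer called in *Sox2* mutants without CTRL_1, CTRL_2 or MUT_4 (FDR 0.0132 to 0.0160) and in *Nr2f1* mutants without CTRL_B or MUT_A (FDR 0.0114 to 0.0117) or with the male-specific covariate or the fibroblast covariate (FDR 0.0185 to 0.0454).

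*Abcc8* was at 30.9, 27.4 and 33.6 CPM in controls and 18.5, 17.4 and 17.8 CPM in *Sox2* mutants (log2 fold change -0.77 ± 0.094, FDR 6.23e-04), and at 31.4, 32.2 and 28.2 CPM and 11.2, 17.8 and 13.4 CPM in the *Nr2f1* line (log2 fold change -1.11 ± 0.15, FDR 0.00231). No mutant library reached a control. The call held in all 17 settings of the first line, and in *Nr2f1* mutants *Abcc8* was no longer called without CTRL_B or CTRL_D (FDR 0.0135 to 0.0154) or with the male-specific covariate or the fibroblast covariate (FDR 0.0201 to 0.0366). The other such pair, *Kcnj8* (Kir6.1) and *Abcc9* (SUR2), which pericytes and smooth muscle use and which lie 16.2 kb apart on chromosome 6, passed in neither line. *Kcnc1*, which was lower in *Sox2* mutants and not called in *Nr2f1* mutants, lies 216 kb from *Abcc8* on chromosome 7. *Kcnj14*, 272 kb from *Kcnj11* on that chromosome, was called in neither line.

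**Figure D4:**
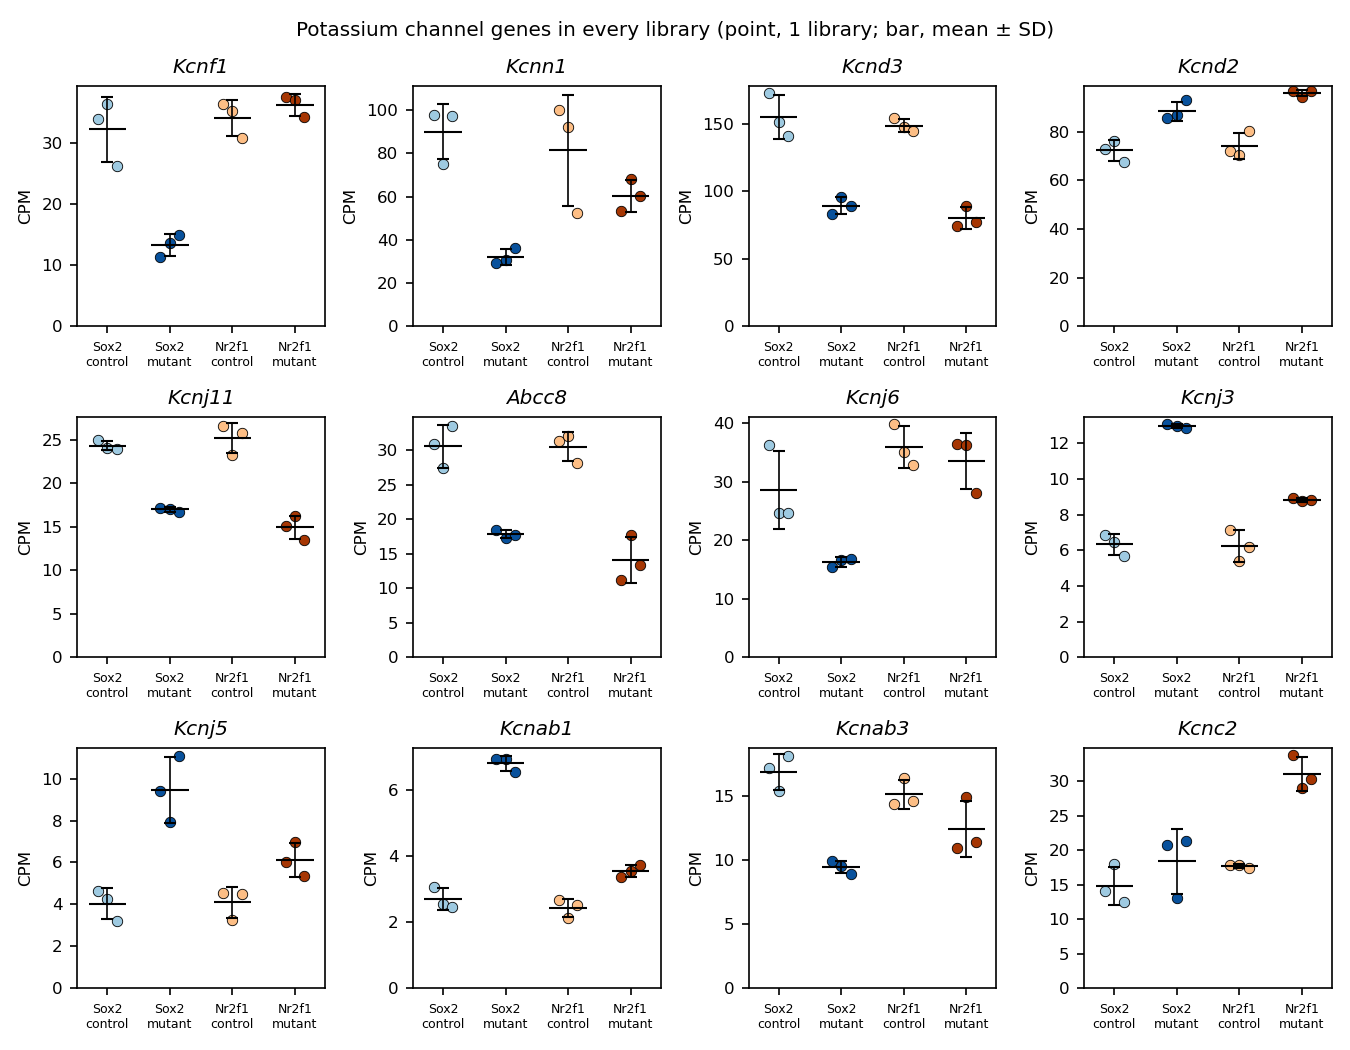
CPM of 12 genes in every library (1 point per library; bar and whisker, mean and SD of 3), each panel starting at 0. *Kcnd3*, *Kcnj11* and *Abcc8* are lower in the mutants of both lines, *Kcnf1* and *Kcnn1* are lowest in the *Sox2* mutants, and *Kcnc2* is highest in the *Nr2f1* mutants.

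Kir4.1, encoded by *Kcnj10*, is the main potassium uptake channel of astrocytes. *Kcnj10* rose from 63.2, 61.3 and 66.1 CPM in controls to 85.1, 92.02 and 98.04 CPM in *Sox2* mutants, without overlap (log2 fold change 0.53 ± 0.072, FDR 0.00118), and it was no longer called without CTRL_2 (FDR 0.0107). At 144% of the control mean it moved with the astrocyte and radial glia markers of the line, whose sums are given above, and their part in the rise was not tested. Across *Nr2f1*-line libraries *Kcnj10* was 48.7, 49.6 and 53.2 CPM in controls and 61.3, 57.8 and 56.8 CPM in mutants (log2 fold change 0.22 ± 0.060, FDR 0.0625). Its neighbour at 11.9 kb, *Kcnj9*, was not called. *Kcnj16* (Kir5.1), which joins Kir4.1, passed in neither line. Among Kir2 genes, which stabilize the resting potential, *Kcnj12* was 20.5, 13.8 and 17.3 CPM in controls and 13.3, 8.83 and 12.02 CPM in *Sox2* mutants, apart but not called (log2 fold change -0.60 ± 0.18, FDR 0.0421).

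Of the two-pore leak channels, 2 fell in *Sox2* mutants. *Kcnk10* (TREK-2, opened by stretch and lipids) was 97.4, 92.4 and 86.9 CPM in controls and 59.7, 55.5 and 60.1 CPM in mutants (log2 fold change -0.66 ± 0.070, FDR 3.18e-04), and *Kcnk1* (TWIK-1) 24.7, 22.9 and 20.2 CPM and 13.1, 11.9 and 16.4 CPM (log2 fold change -0.71 ± 0.13, FDR 0.00581). Neither overlapped. *Kcnk10* was called in all 17 settings, whereas *Kcnk1* was no longer called without CTRL_1, CTRL_2, MUT_1 or MUT_3 (FDR 0.0167 to 0.0284) or with the male-specific covariate or the fibroblast covariate (FDR 0.0151 to 0.0167). In the *Nr2f1* line *Kcnk10* was 114, 93.7 and 73.7 CPM in controls and 71.7, 86.7 and 74.9 CPM in mutants, with overlap (log2 fold change -0.27 ± 0.14, FDR 0.262), and *Kcnk1* overlapped too.

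*Kcnk3* (TASK-1, closed by acid and by transmitters acting through Gq) stood just outside the threshold in *Nr2f1* mutants and for the difference. It was 33.5, 36.4 and 33.1 CPM in controls and 22.01, 27.04 and 25.3 CPM in *Nr2f1* mutants, below all controls (log2 fold change -0.47 ± 0.086, FDR 0.0118). In the *Sox2* line it was 43.1, 34.3 and 32.8 CPM in controls and 43.2, 45.9 and 40.9 CPM in mutants, with overlap (log2 fold change 0.24 ± 0.11, FDR 0.144). The log2 difference of the lines was 0.71 ± 0.14 (FDR 0.0135). *Kcnk13* (THIK-1, a microglial leak channel) was 2.78, 2.34 and 1.70 CPM in controls and 2.46, 1.78 and 2.83 CPM in *Sox2* mutants (log2 fold change 0.05 ± 0.25, FDR 0.910), with overlap, while the summed microglial markers of those libraries did not overlap. *Kcnk5* (TASK-2) was 0.972, 0.876 and 0.741 CPM in *Sox2*-line controls and was not called in either line.

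BK channels, opened jointly by voltage and calcium, and sodium-activated Slack channels were not called. *Kcnma1*, the BK pore, was 54.2, 48.2 and 37.4 CPM in controls and 35.1, 39.9 and 38.9 CPM in *Sox2* mutants, with overlap (log2 fold change -0.30 ± 0.12, FDR 0.123), and *Kcnt1* (Slack) 72.5, 79.2 and 85.6 CPM and 79.4, 77.5 and 75.2 CPM (log2 fold change -0.03 ± 0.074, FDR 0.796). *Kcnmb4*, the neuronal BK beta subunit, was 22.1, 22.4 and 24.3 CPM in controls and 28.8, 26.5 and 30.1 CPM in *Sox2* mutants, apart but not called (log2 fold change 0.31 ± 0.085, FDR 0.0300). *Lrrc55*, which encodes a gamma subunit that lets BK open at lower voltage, fell from 50.9, 44.8 and 42.2 CPM to 30.999, 27.3 and 30.1 CPM in *Sox2* mutants (log2 fold change -0.64 ± 0.091, FDR 0.00144), in all 17 settings. In *Nr2f1* mutants it was 33.2, 34.7 and 35.1 CPM against 52.2, 45.5 and 40.9 CPM, apart but short of the threshold (log2 fold change -0.43 ± 0.088, FDR 0.0194).

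KCNE proteins have a single transmembrane segment and modify Kv channels. *Kcne1l* (also known as *Kcne5*, on chromosome X) rose in *Sox2* mutants from 14.9, 12.6 and 14.1 CPM to 23.7, 25.5 and 22.6 CPM (log2 fold change 0.79 ± 0.099, FDR 7.30e-04), in all 17 settings, and *Kcne4* from 1.22, 1.44 and 1.33 CPM to 2.44, 3.16 and 4.27 CPM (log2 fold change 1.30 ± 0.24, FDR 0.00586). Both were free of overlap between groups. *Kcne4* was no longer called without CTRL_1, CTRL_2, MUT_3 or MUT_4 (FDR 0.0143 to 0.0316) or with the male-specific covariate or the fibroblast covariate (FDR 0.0120 to 0.0149). In *Nr2f1* mutants *Kcne1l* was 10.5, 12.01 and 14.9 CPM against 10.2, 10.7 and 12.003 CPM and *Kcne4* 1.03, 0.953 and 1.55 CPM against 0.952, 1.26 and 1.17 CPM, with overlap. *Kcnrg*, a suppressor of Kv assembly, was 1.76, 2.86 and 2.44 CPM in controls and 1.88, 2.43 and 1.59 CPM in *Sox2* mutants and was not called.

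Of 28 genes fixed as partners of these channels outside the Kcn symbols (scaffolds, auxiliary subunits and G protein regulators), 26 were tested in each line. In *Sox2* mutants 6 were lower (*Abcc8*, *Ank3*, *Cntnap2*, *Dpp6*, *Lrrc55* and *Rgs6*) and 1 higher (*Dlg1*), and in *Nr2f1* mutants 2 were lower (*Abcc8* and *Rgs6*) and 0 higher. Of all genes tested 4.19% were lower and 3.9% higher in *Sox2* mutants, and 1.32% and 1.22% in *Nr2f1* mutants. The median log2 fold change of the partner genes was -0.13 in *Sox2* and -0.10 in *Nr2f1* mutants, against 0.00 and 0.01 for all genes. Like the members, these genes were listed with earlier results of these data known.

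The members called in both lines were *Kcnd3* and *Kcnj11*, 2 of the 19 called in *Sox2* mutants and 2 of the 7 called in *Nr2f1* mutants, both lower. Cre in the *Rora* locus was shared by the mutants of both lines, and its part was not tested. Among all genes tested in both lines, 161 were called the same way in both, 12.8% of the 1256 called in *Sox2* mutants and 40.9% of the 394 called in *Nr2f1* mutants. Of the 12 members lower in *Sox2* mutants 11 also had a negative log2 fold change in *Nr2f1* mutants, the exception being *Kcnf1*, and all 7 higher members had a positive one. All 7 members called in *Nr2f1* mutants had the same sign in *Sox2* mutants. Shared signs were common over all genes too, at 87.3% of the genes called in *Sox2* mutants and 84.5% of those called in *Nr2f1* mutants. For 7 of the called members, among them *Kcna4*, *Kcne4*, *Kcnip3*, *Kcnj6*, *Kcnk1* and *Kcnk10*, the sign in the line without a call changed under at least 1 alternative. Over the 81 members tested in both lines, 8 had every mutant library below every control in both lines (among them *Kcna1*, *Kcnc1*, *Kcnd3*, *Kcng3*, *Kcnh8*, *Kcnj11* and *Kcnq3*) and 11 above, and over all 15397 genes tested in both, 1089 and 938 did. That a member passed in one line alone does not show a difference, and the test of the difference passed for *Kcnf1* alone.

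**Figure D5:**
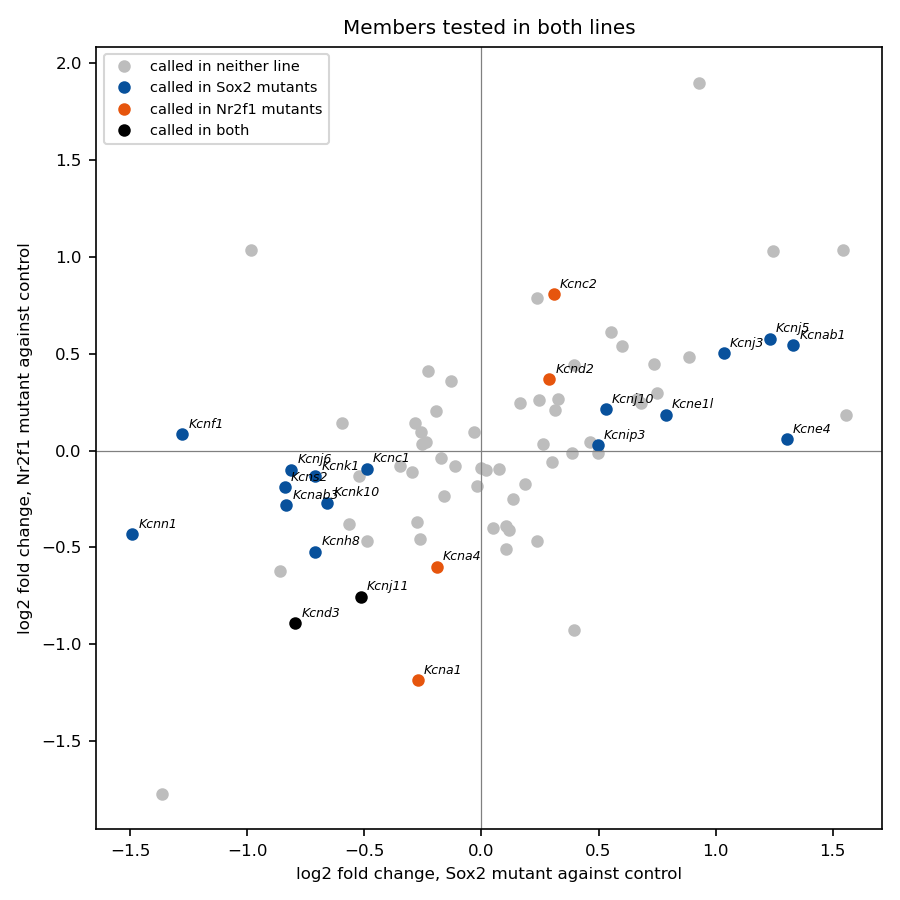
Log2 fold change in *Nr2f1* mutants (vertical) against that in *Sox2* mutants (horizontal) for 78 of the 81 members tested in both lines, coloured by the call. *Kcnd3* and *Kcnj11* (black) lie in the lower left, and *Kcnf1* lies far to the left at a vertical value of 0.09.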

How the data were processed

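RNA-seq was analysed from 12 libraries of P0 dLGN (4 groups of 3, each a pool of 3 animals). The authors aligned the reads with STAR (mm10, per the submitters' processing notes) and ran RSEM. The authors deposited gene-level expected counts, without normalization, in 1 table per line (24480 genes, 0 entries without a name). Of the values, 7.77% were not whole, and all were rounded. Columns name the group but not the numbered sample, so library names are those of the columns.

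Genes were tested with edgeR 4.0.16 under R 4.3.3 by the quasi-likelihood F-test, once TMM factors were set and genes failing filterByExpr (count of 10, total of 15) dropped, with Benjamini-Hochberg adjustment over all genes and FDR below 0.01. SE was derived from the fold change and the F statistic. The difference between lines was the interaction of line and genotype over 12 libraries. Scripts were tested on simulated data. Length-scaled levels used the median length of each gene's GENCODE M21 transcripts with a RefSeq accession, or of all its transcripts where none had one. Lengths were found for all 94 members. Promoter windows and positions came from RefSeq tables for GRCm38.p6.

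The members and all lists were chosen with earlier results of these data known. Named genes are members called in either line or for the difference, the member with the highest control CPM in each subfamily, the deleted genes and called partner genes; some of these are not reported here and enter the counts only; other genes are named as relatives of these after their values were seen. Alternatives were other filters, scalings (upper quartile, RLE), DESeq2 1.42.0, the likelihood ratio test, FDR below 0.05, one fit, a replicate block, leaving out each library and, chosen after seeing the data, covariates for male-specific and fibroblast genes. Nothing states that pools share no litter, so p-values measure the spread between these pools.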

Additional observations from a re-analysis of the deposited data

Results flagged for a closer look

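*Kcnf1* was picked out because its change differed between the lines in the test of the difference itself. Its log2 fold change in *Sox2* mutants was lower than that in *Nr2f1* mutants by a difference of -1.36 (FDR 0.000459, interaction of line and genotype in edgeR over 12 libraries), and over all 19 alternatives this difference lay between -1.48 and -1.25. All 3 *Sox2* mutant libraries were below their controls, while the *Nr2f1* mutants overlapped theirs. The cause was not tested.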

How the results depend on the processing

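No member changed direction under any alternative in the line where it was called. Among results that were not called, 21 changed sign in at least 1 setting, with 43 such values counted over all settings. These results cover named members, partner genes and deleted genes, in a line or for the difference. One was *Kcna4* in *Sox2* mutants, at 0.04 with the fibroblast covariate. Against 19 members called in *Sox2* mutants, the count was 30 with DESeq2 and 35 at FDR below 0.05, and 10 to 24 when 1 library was left out. Against 7 in *Nr2f1* mutants DESeq2 gave 15, the likelihood ratio test 18, and edgeR 17 at FDR below 0.05, then 2 with the male-specific covariate, 1 with the fibroblast covariate, and 2 to 10 when 1 library was left out. For the difference between the lines, 1 member became 2 without a filter and 2 with upper quartile normalization, 5 with DESeq2, 5 with the likelihood ratio test, 5 at FDR below 0.05, and 1 to 3 when 1 library was left out. With the replicate block in the *Sox2* line, where numbers 1 and 3 occur in both groups, 24 members were called, 17 of the 19 among them. CTRL_2 and MUT_4 share their number with no other library. They therefore add nothing to the fold change in this setting, which rests on CTRL_1, CTRL_3, MUT_1 and MUT_3. Deviations of same-numbered libraries correlated at 0.177 and 0.157. Of differently numbered libraries, CTRL_2 with MUT_1 correlated at 0.152 and CTRL_3 with MUT_4 at 0.127, and the others at -0.282 to -0.0708. With 2 pairs, and such values for other combinations, this does not show that the numbers pair the samples. No paired analysis was possible in the *Nr2f1* line because its groups share fewer than 2 labels. The cause of these changes was not tested. At 3 libraries a group, leaving out 1 or adding a covariate also lowers the power of the test. Genes that failed the filter on low counts were tested only in the setting without it.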
